A study of Blattella germanica with 16 samples.

Results

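Heat shock proteins and chaperonins of the fat body were taken from the gene table of Blattella germanica, the German cockroach, as every gene whose product name holds "heat shock", "T-complex protein 1", "DnaJ" or "chaperonin" and does not name the endoplasmic reticulum. The rule selected 47 of 28676 genes, and no matching name was left out for naming the endoplasmic reticulum. RNA sequencing measured the fat body, the insect tissue of storage, metabolism and yolk protein synthesis. Adult females were injected with double-stranded RNA (dsRNA), which lowers the matching transcript by RNA interference, directed at 1 of 3 insulin receptors (dsInR2, dsInR3 or dsInR1) or with a control dsRNA (dsMock). Every group received 2 µg in each of 2 injections, 7 days apart, and held 4 libraries. All animals, controls included, were females taken on day 5 of the second reproductive cycle, after the egg case (ootheca) had been removed on day 12. The labels give the same temperature and humidity for every sample. The labels also place the injections 12 and 5 days before extraction, and which timing holds is not settled by the sources used here. The labels do not say how many animals make up a library or that libraries come from separate animals, so the tests measure library-to-library spread, which may be technical. In whole tissue, fewer cells of a type and less RNA per cell cannot be told apart.

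Chaperones bind unfolded proteins and help them reach or keep their folded form. Hsp70 proteins hold short unfolded stretches and work with DnaJ (Hsp40) partners that start their ATP cycle, Hsp90 proteins act late on signalling proteins and receptors, and chaperonins enclose a protein in a barrel. Mitochondria carry their own set: Hsp60 with its 10 kDa lid, an Hsp70 (Hsc70-5, mortalin) that also pulls proteins in through the import pore, and the Hsp90 relative Trap1. The cytosol uses the T-complex protein 1 ring (CCT), built of 8 different subunits, and the endoplasmic reticulum (ER) uses the Hsp70 Hsc70-3 (BiP). The fat body secretes most hemolymph proteins, and so runs a large ER. Roles named here are those of the homologs in Drosophila, yeast or mammals.

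Libraries held 15345964 to 23688522 reads assigned to genes. The gene annotated as an insulin-like receptor, InR (C0J52_14014), had 5.95, 3.42, 7.90 and 6.35 CPM in dsInR2 libraries, against 50.9, 54.6, 53.8 and 51.9 CPM in dsMock libraries, where CPM is the read count scaled to a common library total with TMM factors. Its level was 30.4 to 46.1 CPM in dsInR3 and 46.2 to 51.4 CPM in dsInR1. Every dsInR3 library lay below every dsMock library, as for 4.59% of all tested genes, but InR was not called there (edgeR log2 fold change -0.46, adjusted p = 0.265). The targets of dsInR3 and dsInR1 were not matched to a named gene, so their knockdown was not measured here. The gene C0J52_15443, annotated as a hypothetical protein, took 0.000227 to 6.99% of all reads in dsInR2 libraries, 35.1 to 56.9% in dsInR3, 54.1 to 60.9% in dsInR1 and 51.1 to 58.8% in dsMock. Library 3 of dsInR3 stood apart from its group with 35.1%. Scaling by library totals alone, without TMM, moved the median log2 fold change of all tested genes in dsInR2 against dsMock to 0.61, against 0.04 with TMM, so changes are given relative to the TMM scale.

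Of the 47 genes, 37 had enough reads to be tested among 10536 genes. Changes were tested with edgeR's quasi-likelihood test over all 16 libraries, two-sided, and adjusted p-values are Benjamini-Hochberg values over the 10536 genes, called under 0.05. No read was counted in any library for 5 members (Dnajb13, Dnajc2_2, Dnajc2_3, HSP7D_0 and DNAJC5B). The other 5 untested members had at most 15 reads in a library: HSP90AA1, the 3 Hsp68 genes and HSPA12A. Hsp68 is a heat-inducible Hsp70 of Drosophila, and here its 3 models were near the limit of detection, with 0 to 14 reads for Hsp68_1, 0 to 13 for Hsp68_0 and 0 to 8 for Hsp68_2. The models of Hsp68_1 and Hsp68_2 lie inside that of Hsp68_0, so reads could not be assigned to 1 of them with certainty.

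In dsInR2 fat body, mitochondrial chaperones, the T-complex ring and Hsp90 were higher than in dsMock. In the ER group (Hsc70-3 and 4 DnaJ homologs), 4 of 5 tested members were lower. Of the 37 tested members, 16 were higher and 7 lower in dsInR2 against dsMock, and 14 did not pass the test. Over all tested genes the test called 32.3%, with 17.6% higher and 14.7% lower. The median log2 fold change of the tested members was 0.30, against 0.04 over all tested genes. All 5 tested mitochondrial members and all 8 T-complex subunits were among the 16. Reads of TRAP1_1 and Trap1_0, and of the 10 kDa protein and Hsp60, may not be separable, so the 5 are not 5 independent members. With library totals alone the split was 25 higher and 1 lower, and the count of 7 lower members was 4 without library 4 of dsInR2 and 4 without library 3 of dsMock. No tested member was called in dsInR1 or dsInR3 against dsMock.

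**Figure D1:**
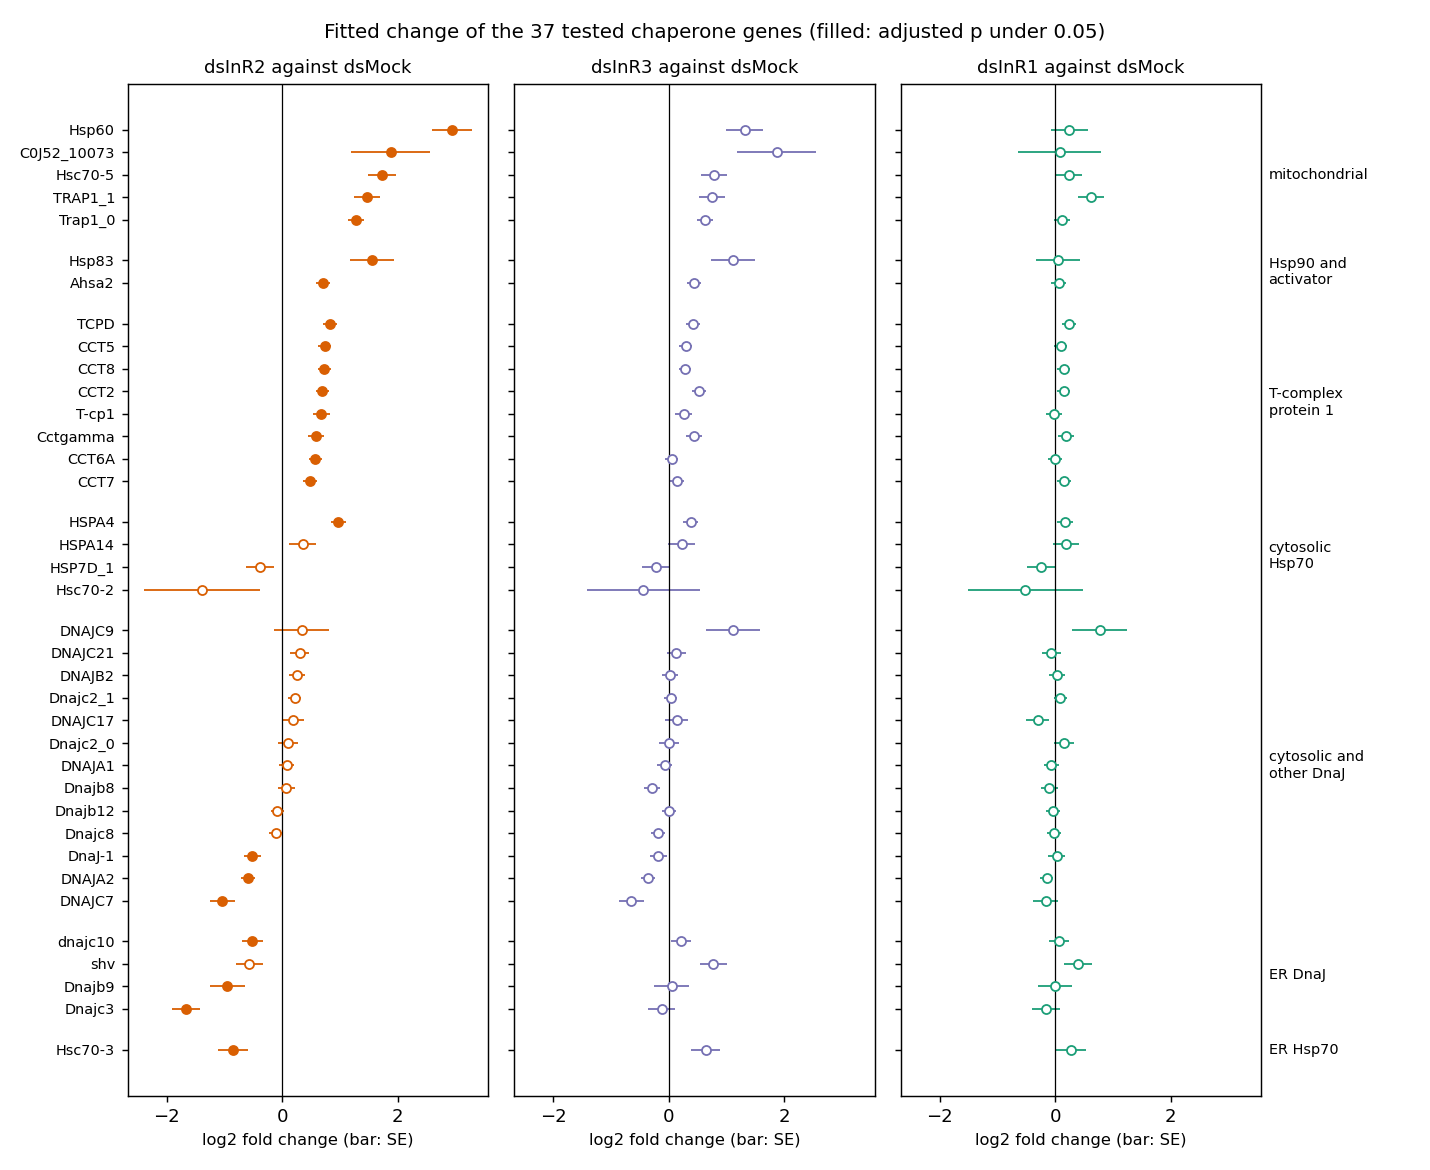
Fitted log2 fold change (horizontal axis; bars are SE) of the 37 tested chaperone genes against dsMock in dsInR2, dsInR3 and dsInR1 fat body, with genes grouped by compartment and family down the vertical axis; filled points have an adjusted p under 0.05. Filled points stand in the dsInR2 panel alone, with 16 to the right of 0 and 7 to the left; the differences between panels are tested in the direct comparisons of the treatments.

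Hsp60, the mitochondrial chaperonin (C0J52_10072; build Bger_1.1, contig PYGN01000583.1, 340484 to 368425), moved furthest of the tested members. It had 400.3, 628, 412 and 253 CPM in dsInR2 libraries, against 46.6, 69.1, 56.9 and 47.6 CPM in dsMock libraries. The lowest dsInR2 library was above the highest dsMock library by a wide margin. The means were 423 ± 155 CPM in dsInR2 and 55.1 ± 10.4 CPM in dsMock (SD, n = 4 each), a fitted 7.69-fold difference (log2 fold change 2.94, SE 0.34, adjusted p = 2.89e-05). In dsInR3 libraries Hsp60 had 240.4, 102, 77.5 and 126 CPM, also above every dsMock library, and in dsInR1 libraries 83.1, 66.7, 56.1 and 54.2 CPM. The order of the means was thus dsInR2, dsInR3, dsInR1 and dsMock, and the ranges of dsInR1 and dsMock overlapped.

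Hsc70-5, the mitochondrial Hsp70 (C0J52_23143; contig PYGN01001782.1, 166303 to 238380), had 258, 413, 302 and 202 CPM in dsInR2 libraries, against 72.4, 115, 87.6 and 80.3 CPM in dsMock libraries. It was 3.31-fold higher in dsInR2 (log2 fold change 1.73, SE 0.24, adjusted p = 8.6e-05), and the groups did not overlap. Library 4 of dsInR2 was the highest of its group for Hsp60, Hsc70-5 and Trap1_0 alike. Libraries 4 and 7, with 6.99 and 6.38% of all reads in C0J52_15443, ranked above libraries 1 and 8 for Hsp60 and Hsc70-5. For Trap1_0 library 7 was the lowest, and the part of this split was not tested. In dsInR3 libraries Hsc70-5 had 198, 139, 111 and 164 CPM and in dsInR1 libraries 109, 125, 104 and 82.5 CPM.

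Trap1_0, the mitochondrial Hsp90 relative (C0J52_01600; contig PYGN01000019.1, 1320450 to 1342996), had 46.8, 53.8, 39.6 and 40.7 CPM in dsInR2 libraries, against 16.3, 15.9, 23.1 and 19.0 CPM in dsMock libraries. The spread within each group was small beside the 2.43-fold difference (log2 fold change 1.28, SE 0.14, adjusted p = 1.67e-05). dsInR3 libraries had 31.7, 27.6, 25.9 and 29.3 CPM, all above the dsMock libraries, and dsInR1 libraries had 21.7, 19.8, 20.6 and 18.9 CPM. A neighbouring model, TRAP1_1, starts just after Trap1_0 ends on the same contig and carries the same product name, so reads of 1 gene could have been split between the models. TRAP1_1 averaged 5.17 ± 0.640 CPM in dsInR2 and 1.86 ± 0.614 CPM in dsMock and was likewise higher (log2 fold change 1.47, SE 0.22, adjusted p = 0.000187).

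The 10 kDa heat shock protein (C0J52_10073), the lid of the Hsp60 barrel, was counted at a low level, with 38, 59, 27 and 46 reads in dsInR2 libraries, against 8, 5, 11 and 6 reads in dsMock libraries. It passed the test narrowly (log2 fold change 1.88, SE 0.68, adjusted p = 0.0468) and did not pass with limma-voom, without a filter on low counts, or without any 1 of 6 of the 8 libraries. Its model lies inside that of Hsp60 on the same contig (340489 to 343940), and the sources do not state whether counting used the strand, so reads of the 2 models may not be separable.

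**Figure D2:**
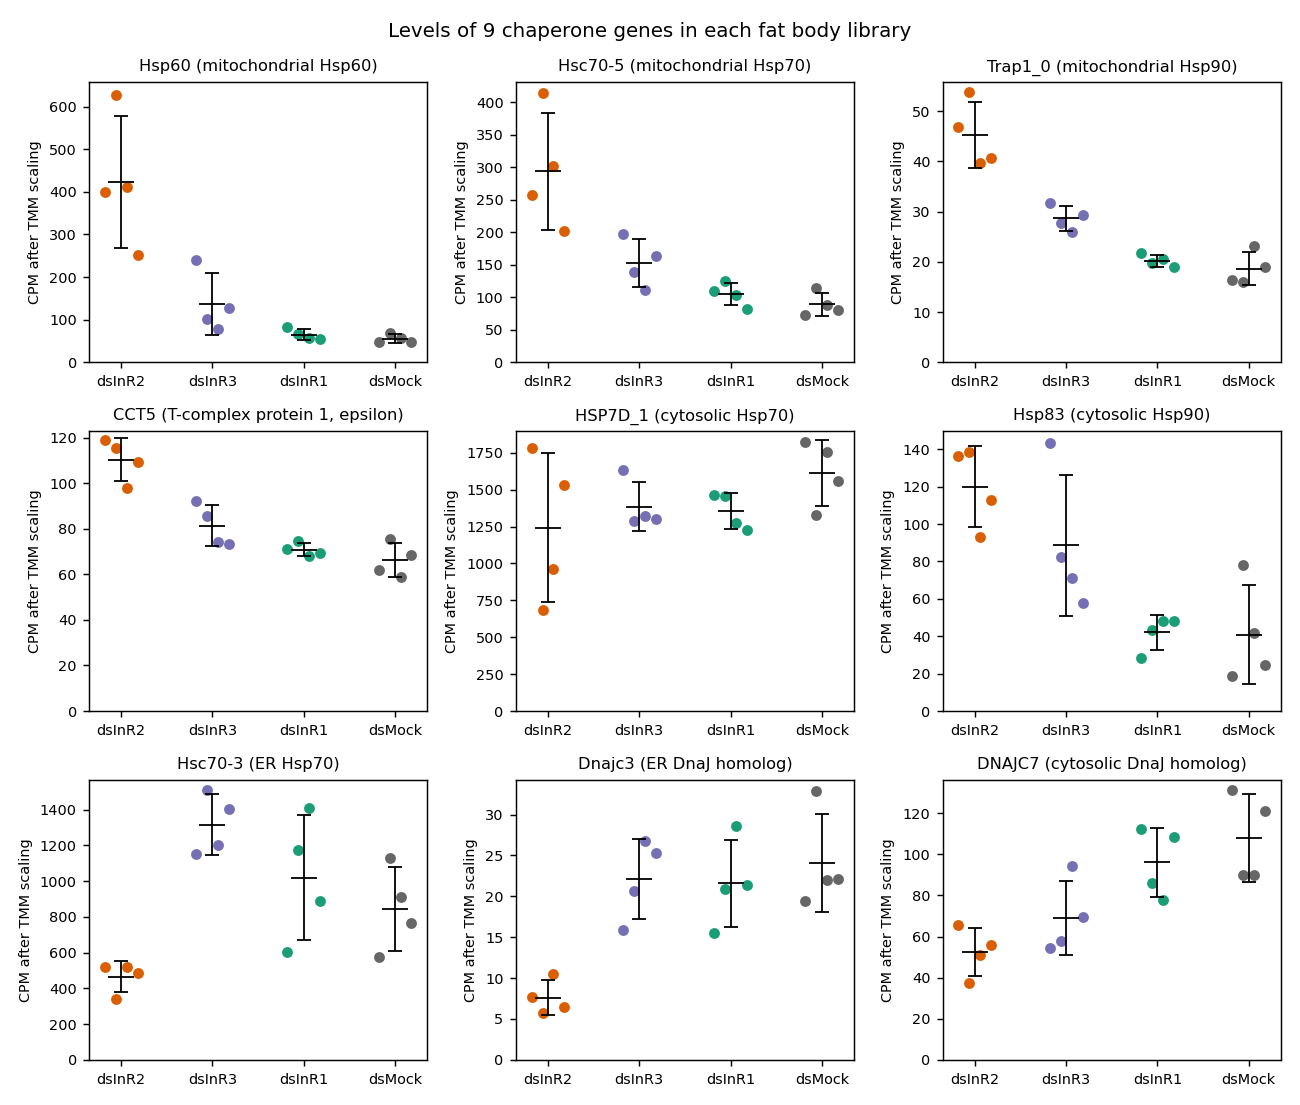
Level in CPM after TMM scaling (vertical axis, starting at 0) of 9 chaperone genes in each library of dsInR2, dsInR3, dsInR1 and dsMock; points are libraries, horizontal marks the mean and bars the SD of 4 libraries. Hsp60, Hsc70-5 and Trap1_0 have every dsInR2 library above every dsMock library, while Hsc70-3, Dnajc3 and DNAJC7 have every dsInR2 library below.

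Hsp83, the cytosolic Hsp90 (C0J52_05508), had 136, 138, 93.0 and 113 CPM in dsInR2 libraries, against 18.9, 77.96, 41.7 and 24.8 CPM in dsMock libraries. It was 2.94-fold higher in dsInR2 (log2 fold change 1.56, SE 0.38, adjusted p = 0.00580). The dsMock libraries varied widely, yet the highest of them stayed below the lowest dsInR2 library. In dsInR3 libraries Hsp83 had 143, 82.6, 71.0 and 57.9 CPM, which overlapped dsMock, and in dsInR1 libraries 28.6, 43.2, 48.3 and 48.3 CPM. Ahsa2, a homolog of the Aha1 activator of the Hsp90 ATPase, had 43.3, 41.7, 32.6 and 35.1 CPM in dsInR2 libraries, against 19.7, 23.4, 24.3 and 26.2 CPM in dsMock libraries (log2 fold change 0.70, SE 0.13, adjusted p = 0.000648).

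The 8 subunits of the T-complex ring, which folds actin and tubulin among other proteins, were higher in dsInR2 within a narrow band. Their log2 fold changes against dsMock ran from 0.48 to 0.83 with a median of 0.69, and for each subunit every dsInR2 library lay above every dsMock library. Over all tested genes, 15.7% had all dsInR2 libraries above all dsMock libraries. CCT5, the epsilon subunit and the one with the most reads, had 119, 116, 97.7 and 109 CPM in dsInR2 libraries, against 62.0, 75.4, 59.0 and 68.7 CPM in dsMock libraries (log2 fold change 0.74, SE 0.11, adjusted p = 0.000235). TCPD, the delta subunit, had 64.6, 65.0, 57.7 and 62.1 CPM in dsInR2 libraries, against 31.1, 36.4, 37.8 and 34.7 CPM in dsMock libraries (log2 fold change 0.83, SE 0.12, adjusted p = 0.000142). CCT8, the theta subunit, had 61.0, 53.7, 60.2 and 55.5 CPM in dsInR2 libraries, against 30.5, 40.7, 32.7 and 35.3 CPM in dsMock libraries (log2 fold change 0.73, SE 0.11, adjusted p = 0.000184). These 3 had the largest values of the 8, at 1.67-fold, 1.78-fold and 1.66-fold. The other 5 rose by 0.70 (CCT2, beta), 0.68 (T-cp1, alpha), 0.58 (Cctgamma, gamma), 0.58 (CCT6A, zeta) and 0.48 (CCT7, eta) on the log2 scale. The summed level of the 8 subunits was 470.4 to 550.4 CPM in dsInR2 and 286 to 358 CPM in dsMock.

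Among 4 tested members of the cytosolic Hsp70 family, HSPA4 alone passed the test. HSPA4, an Hsp110-type protein that exchanges the nucleotide of Hsp70, had 88.3, 99.9, 81.0 and 68.7 CPM in dsInR2 libraries, against 38.1, 50.1, 44.4 and 40.1 CPM in dsMock libraries (log2 fold change 0.97, SE 0.13, adjusted p = 8.6e-05). HSP7D_1, the constitutive cytosolic Hsp70 (cognate 4) and the member with the most reads, had 1784, 685, 964 and 1534 CPM in dsInR2 libraries, against 1824, 1326, 1753 and 1559.7 CPM in dsMock libraries. Its dsInR2 libraries spread from below the whole dsMock range to close to its top (log2 fold change -0.38, SE 0.24, adjusted p = 0.257). The higher libraries, 1 and 8, had 0.0822 and 0.000227% of all reads in C0J52_15443, and the lower ones, 4 and 7, had 6.99 and 6.38%, and the part of this split in the result was not tested. A p above the threshold does not show equal levels, and with library totals alone its log2 fold change was 0.17. HSPA14, a ribosome-linked Hsp70 in mammals, had 5.95, 9.74, 6.04 and 7.57 CPM in dsInR2 libraries, against 4.83, 5.45, 8.08 and 4.58 CPM in dsMock libraries, and the groups overlapped (adjusted p = 0.262). Hsc70-2 had 0 to 60 reads per library and no difference could be detected at this depth (adjusted p = 0.316).

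Most DnaJ partners outside the ER group did not pass the test. Of the 13 tested DnaJ homologs of the cytosol and other places, none was higher and 3 were lower in dsInR2 against dsMock, with a median log2 fold change of 0.08, beside 17.6% higher and 14.7% lower over all tested genes. With library totals alone 8 of the 13 were higher and none lower. DNAJC7, which links Hsp70 and Hsp90 in mammals, had 65.9, 37.6, 50.9 and 56.0 CPM in dsInR2 libraries, against 132, 89.8, 89.8 and 121 CPM in dsMock libraries (log2 fold change -1.04, SE 0.21, adjusted p = 0.00179). DNAJA2, a general Hsp70 partner, had 55.6, 68.8, 59.7 and 51.8 CPM in dsInR2 libraries, against 96.4, 86.5, 86.8 and 85.5 CPM in dsMock libraries (log2 fold change -0.59, SE 0.12, adjusted p = 0.00129). Both genes had every dsInR2 library below every dsMock library, as did 14.4% of all tested genes. DnaJ-1, the Hsp40 of the Drosophila heat response, had 15.9, 13.0, 20.8 and 13.6 CPM in dsInR2 libraries, against 23.7, 25.0, 19.7 and 22.3 CPM in dsMock libraries (log2 fold change -0.52, SE 0.15, adjusted p = 0.0152). Its ranges overlapped, and with library totals alone its log2 fold change was 0.025. DNAJB2, the one of the group with the most reads, had 123, 134, 119 and 135 CPM in dsInR2 libraries, against 116, 89.0, 96.9 and 125 CPM in dsMock libraries (adjusted p = 0.168). The remaining 9 had log2 fold changes from -0.11 (Dnajc8) to 0.33 (DNAJC9) and did not pass. Dnajb12, which sits in the ER membrane in mammals, was among them at -0.08 and is not counted in the ER group.

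The rule also caught chaperones of the ER whose product names do not say so, and most were lower in dsInR2. Of 5 tested (Hsc70-3 and 4 DnaJ homologs), none was higher and 4 were lower against dsMock, with a median log2 fold change of -0.86, beside 14.7% lower over all tested genes. The count of 4 was 1 (Dnajc3) without library 4 of dsInR2, without library 3 of dsMock or with library totals alone, and 2 without library 5 of dsMock or with the 2 groups fitted alone. Hsc70-3, the ER Hsp70 BiP (C0J52_27014; contig PYGN01002562.1, 29950 to 83378), had 519, 341, 518 and 487 CPM in dsInR2 libraries, against 574, 1127, 913 and 765 CPM in dsMock libraries. It was 1.81-fold lower in dsInR2 (log2 fold change -0.86, SE 0.26, adjusted p = 0.0186), and the highest dsInR2 library stayed below the lowest dsMock library. The call for Hsc70-3 was lost without library 4 of dsInR2, without library 3 of dsMock and with library totals alone, where its log2 fold change was -0.29. Dnajc3 (p58IPK in mammals), which also holds back the kinase PERK there, had 7.71, 5.69, 10.6 and 6.42 CPM in dsInR2 libraries, against 19.4, 32.9, 22.0 and 22.1 CPM in dsMock libraries. It was 3.17-fold lower in dsInR2 (log2 fold change -1.66, SE 0.25, adjusted p = 0.000156). It is the one lower member that stayed called under every alternative tried.

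Dnajb9 (ERdj4 in mammals), a BiP partner in the removal of misfolded proteins, had 2.87, 1.26, 2.08 and 1.50 CPM in dsInR2 libraries, against 2.34, 5.45, 3.23 and 3.86 CPM in dsMock libraries (log2 fold change -0.95, SE 0.30, adjusted p = 0.0253). Its ranges overlapped, and its call was lost under 6 alternatives, among them leaving out library 4 or 8 of dsInR2 or library 3 or 5 of dsMock. The homolog dnajc10 (ERdj5), a DnaJ with disulfide reductase activity in mammals, had 5.49, 3.89, 5.10 and 6.17 CPM in dsInR2 libraries, against 6.92, 8.39, 6.54 and 7.71 CPM in dsMock libraries (log2 fold change -0.52, SE 0.18, adjusted p = 0.0352). Its call was lost under 8 alternatives, including leaving out library 1, 4 or 7 of dsInR2 or library 3 or 5 of dsMock, and with library totals alone its log2 fold change was 0.057. The homolog shv, a secreted and ER DnaJ of Drosophila, had 68.8, 64.2, 71.9 and 94.9 CPM in dsInR2 libraries, against 81.6, 134, 115 and 114 CPM in dsMock libraries, and did not pass (log2 fold change -0.57, SE 0.24, adjusted p = 0.0814; 0.027 on the log2 scale with library totals alone).

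Within each library, where scaling between libraries plays no part, mitochondrial chaperones were set against all 47 members and then against counterparts in the cytosol. The 5 mitochondrial members took 16.2, 31.6, 21.8 and 13.2% of the reads of all 47 members in dsInR2 libraries, against 3.80, 5.25, 4.37 and 4.17% in dsMock libraries. They took 10.4, 6.29, 5.46 and 7.61% in dsInR3 libraries and 6.43, 5.30, 4.54 and 4.65% in dsInR1 libraries. Every dsInR2 library thus held a larger mitochondrial share than any library of the other groups. The 8 T-complex subunits took 13.5 ± 0.934% in dsInR2 and 8.53 ± 0.663% in dsMock (SD, n = 4 each), a smaller shift in the same direction. Hsc70-3 took 12.3 ± 2.10% in dsInR2 and 22.5 ± 5.56% in dsMock, in a total that includes the mitochondrial and T-complex reads. HSP7D_1 took 40.5, 19.6, 27.6 and 40.3% of that total in dsInR2 libraries and 34.5 to 50.5% in dsMock libraries. Outside the mitochondrial and ER groups, 27 members were tested (Hsp70, Hsp90, T-complex and DnaJ). Of these, 11 were higher and 3 lower in dsInR2 against dsMock, beside 17.6% and 14.7% over all tested genes. Their median log2 fold change was 0.30, with summed levels of 1968 to 3086 CPM in dsInR2 and 2331 to 2791 CPM in dsMock. The summed level of the 37 tested members was 3488 to 4402 CPM in dsInR2 libraries and 3588 to 3903 CPM in dsMock libraries, so the ranges of the whole set overlapped.

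**Figure D3:**
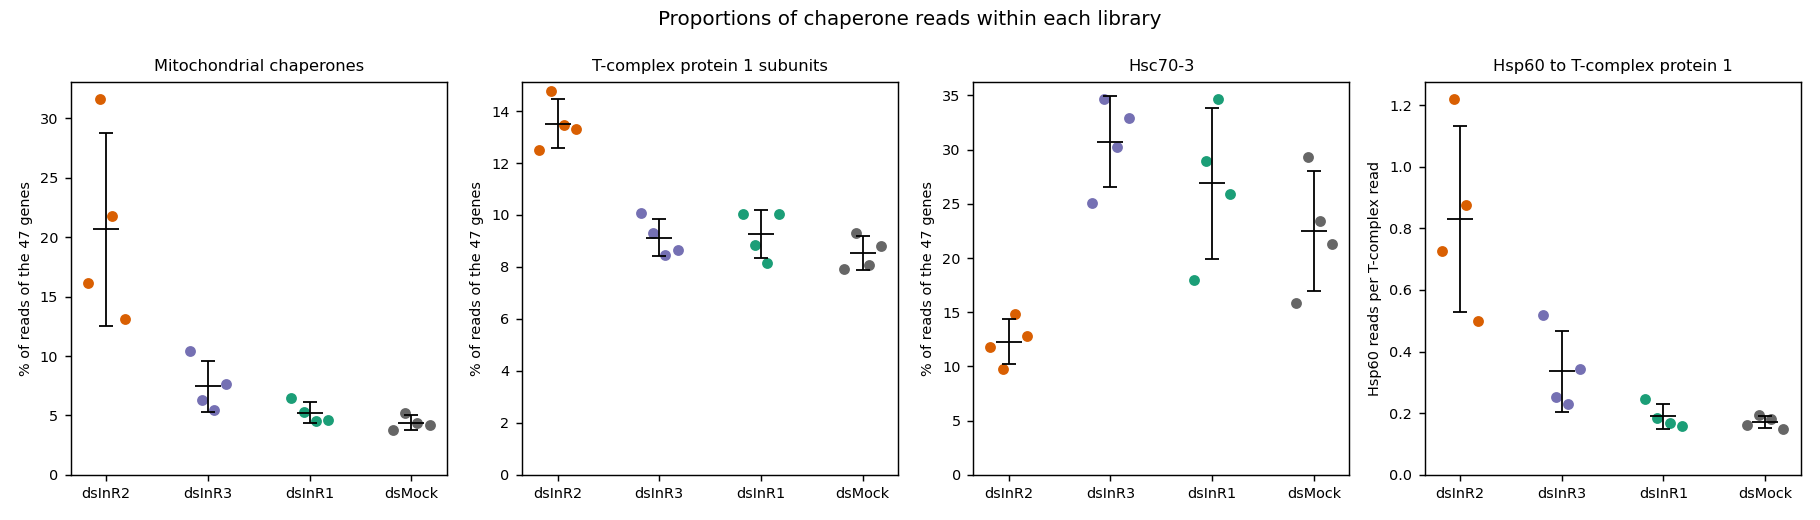
Share of the reads of the 47 chaperone genes (%, first 3 panels, vertical axes starting at 0) taken by the 5 mitochondrial members, the 8 T-complex subunits and Hsc70-3, and Hsp60 reads per read of the T-complex subunits (last panel), in each library of dsInR2, dsInR3, dsInR1 and dsMock; marks and bars are mean and SD of 4 libraries. The mitochondrial share is 13.2 to 31.6% in dsInR2 and 3.80 to 5.25% in dsMock.

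For counterparts in the 2 compartments, the ratio of reads within a library was compared over 4 against 4 log2 ratios with a two-sided exact permutation test, in a set of 20 tests chosen after the levels had been seen, where the smallest possible p is 0.0286. The chaperonin pair gave 3.83 ± 1.32 Hsp60 reads per CCT5 read in dsInR2 and 0.832 ± 0.129 in dsMock, with no overlap (exact p = 0.0286, 0.0816 adjusted over the 20). The Hsp70 pair gave 0.298 ± 0.22 Hsc70-5 reads per HSP7D_1 read in dsInR2 and 0.0569 ± 0.0205 in dsMock, also with no overlap (exact p = 0.0286, adjusted 0.0816). Hsp60 and Hsc70-5 were higher relative to these cytosolic counterparts in 4 of 4 dsInR2 libraries. Both genes had already been seen to separate the groups when the pairs were chosen, so the exact p adds no separate support. No ratio passed 0.05 after adjustment, which with this smallest possible p would need most of the 20 tests to reach it. In dsInR3 the Hsp60 ratio was 1.64 ± 0.707, also with 4 libraries above dsMock (exact p = 0.0286, adjusted 0.0816). Its dsInR2 and dsInR3 ranges overlapped (exact p = 0.0571, adjusted 0.104). The Hsc70-5 ratio was 0.11 ± 0.0189 in dsInR3, with 3 libraries above dsMock (exact p = 0.0571, adjusted 0.104). It did not overlap between dsInR2 and dsInR3 (exact p = 0.0286, adjusted 0.0816). For the Hsp90 pair, Trap1_0 gave 0.38 ± 0.0361 reads per Hsp83 read in dsInR2 and 0.597 ± 0.292 in dsMock, and the dsInR2 libraries lay inside the dsMock range (exact p = 0.343). Trap1_0 and Hsp83 were both higher in dsInR2, and a change in their ratio was not detected. The ER and cytosolic Hsp70 genes gave 0.411 ± 0.125 Hsc70-3 reads per HSP7D_1 read in dsInR2 and 0.544 ± 0.224 in dsMock, with overlap (exact p = 0.429, adjusted 0.504). Whether the pairs differ from each other was not tested.

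In dsInR3 fat body none of the 37 tested members passed the test against dsMock, where edgeR called 0.304% of all tested genes (0.199% higher and 0.104% lower). An unadjusted p under 0.05 was reached by 18 of 37 members, against 1546 of 10536 genes. The members' log2 fold changes had a median of 0.21, against 0.00 over all tested genes, and 7 members had every dsInR3 library above every dsMock library and 1 every library below, against 5.62% and 4.59% of all tested genes. The members with the smallest p were Trap1_0 (log2 fold change 0.63, SE 0.14, adjusted p = 0.0556), CCT2 (log2 fold change 0.52, SE 0.12, adjusted p = 0.0577) and Hsp60 (log2 fold change 1.31, SE 0.32, adjusted p = 0.0767). All 5 mitochondrial members had positive values, with a median log2 fold change of 0.78. TRAP1_1 and the 10 kDa protein among them may not be separable from Trap1_0 and Hsp60. DESeq2 called 9 members higher (Trap1_0, TRAP1_1, Hsp60, Hsc70-5, CCT2, TCPD, Cctgamma, Ahsa2 and shv) and DNAJA2 lower, and it called 281 genes higher and 143 lower in all. limma-voom called Trap1_0 alone.

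The highest dsInR3 value of Hsp60 came from library 3, in which C0J52_15443 took its lowest share of the group. InR was also lowest of the group in library 3, at 30.4 CPM, and the part of either was not tested. Without that library no member was called, and the log2 fold change of Hsp60 was 0.89 (adjusted p = 0.244), and without library 6 it was 1.51 (adjusted p = 0.0389). Leaving out library 6 of dsInR3 brought 4 members past the threshold (Trap1_0, Hsp60, CCT2 and TCPD), and leaving out library 4 of dsMock brought Trap1_0. The ER Hsp70 gene Hsc70-3 had 1149.9, 1507, 1203 and 1405 CPM in dsInR3 libraries, all above dsMock but not past the test (log2 fold change 0.64, SE 0.26, adjusted p = 0.255), and shv had 171, 198, 198 and 193 CPM, likewise above (log2 fold change 0.77, SE 0.24, adjusted p = 0.137). For both genes the mean of dsMock lay between a lower mean in dsInR2 and a higher one in dsInR3.

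In dsInR1 fat body no member passed the test against dsMock, where edgeR called 0.0% of all tested genes. The knockdown of the dsInR1 target was not measured here. The members' log2 fold changes had a median of 0.07, and 1 of 37 had an unadjusted p under 0.05, against 347 of 10536 genes. DESeq2 and limma-voom called no member either, while DESeq2 called 4 genes higher and 3 lower in all and limma-voom 0. dsInR3 against dsInR1 likewise gave no called member, at 0.0% of all tested genes. There 9 members had an unadjusted p under 0.05, against 970 genes, and 5 members had every dsInR3 library above every dsInR1 library and none every library below, against 3.31% and 2.93% of all tested genes. DESeq2 called 42 genes higher and 40 lower in that comparison but no member, and limma-voom called none.

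Set directly against the other receptor treatments, dsInR2 again differed in both directions. These comparisons share the dsInR2 libraries with the comparison against dsMock, so their overlap is not independent. Against dsInR1, 14 members were higher and 8 lower, with 31.1% of all tested genes called (16.8% higher and 14.3% lower). Hsp60 (log2 fold change 2.70, SE 0.34, adjusted p = 5.61e-05), Trap1_0 (log2 fold change 1.16, SE 0.14, adjusted p = 3.65e-05) and Hsc70-5 (log2 fold change 1.48, SE 0.23, adjusted p = 0.000299) were higher, as were 7 of 8 T-complex subunits. Against dsInR3, 10 members were higher and 5 lower, with 22.9% of all tested genes called (11.6% higher and 11.3% lower). Hsp60 (log2 fold change 1.63, SE 0.33, adjusted p = 0.00236), Hsc70-5 (log2 fold change 0.94, SE 0.23, adjusted p = 0.00853), Trap1_0 (log2 fold change 0.66, SE 0.14, adjusted p = 0.00292) and TRAP1_1 were higher there, with 5 of 8 T-complex subunits and HSPA4. The T-complex count against dsInR3 was 3 without library 1 of dsInR2, without library 6 of dsInR3 or without library 7 of dsInR3, and 2 with the 2 groups fitted alone. TRAP1_1 did not pass against dsInR3 without library 1 or 4 of dsInR2 or without library 5, 6 or 7 of dsInR3.

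Hsp83 separated dsInR2 from dsInR1 (log2 fold change 1.51, SE 0.38, adjusted p = 0.00741) but was not called against dsInR3 (log2 fold change 0.44, SE 0.37, adjusted p = 0.442), and the same held for Ahsa2 and the 3 lower DnaJ homologs DNAJC7, DNAJA2 and DnaJ-1. Dnajb12, which was left out of the ER group, was called in neither direct comparison (log2 fold change -0.04 against dsInR1 and -0.09 against dsInR3). The ER group was lower in all 5 members in both direct comparisons. Against dsInR1 the count was 3 without library 4 of dsInR2 or library 6 of dsInR1, and 4 without library 8 of dsInR2 or library 5 of dsInR1. Against dsInR3 it was 4 without library 4 or 8 of dsInR2 or library 5, 6 or 7 of dsInR3, where Dnajb9 was the one lost. With library totals alone the ER count was 1 against dsInR1 and 3 against dsInR3. With library totals alone 3 of the lower genes had positive log2 fold changes against dsInR1, namely DNAJA2 with 0.22, DnaJ-1 with 0.095 and dnajc10 with 0.083. Hsc70-3 was 2.82-fold lower in dsInR2 than in dsInR3 (log2 fold change -1.50, SE 0.26, adjusted p = 0.000957) and 2.19-fold lower than in dsInR1 (log2 fold change -1.13, SE 0.26, adjusted p = 0.00401). For shv the log2 fold change was -1.34 against dsInR3 (adjusted p = 0.00118) and -0.96 against dsInR1 (adjusted p = 0.00681). Dnajc3 differed by a similar amount from each group, with -1.54 against dsInR3 and -1.51 against dsInR1.

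Genes that work beside these chaperones were described from name lists. Of 21 tested genes of mitochondrial import and quality control, 12 were higher and 2 lower in dsInR2 against dsMock, with a median log2 fold change of 0.74, beside 17.6% higher and 14.7% lower over all tested genes. Lonp1, the Lon protease of the matrix, averaged 73.4 ± 12.3 CPM in dsInR2 and 25.1 ± 4.02 CPM in dsMock (log2 fold change 1.55, SE 0.18, adjusted p = 3.14e-05), and it was the 1 gene of the list called in dsInR3 (log2 fold change 1.04, SE 0.18, adjusted p = 0.0328). The prohibitin models PHB2_0 and PHB2_1, scaffold proteins of the inner membrane with the same product name, rose by 2.26 and 2.27 on the log2 scale in dsInR2. Paraplegin (SPG7), an inner membrane protease, rose by 0.74. The list of small heat shock relatives had 3 of 4 tested genes higher, beside 17.6% of all tested genes, but CRYL1 and Crym, at 2.42 and 1.58, are metabolic enzymes with a crystallin name, and Cryab, a small heat shock protein, had 0.59 (adjusted p = 0.0364).

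Of 11 tested cytosolic co-chaperones, 4 were higher and 1 lower in dsInR2 against dsMock, beside 17.6% higher and 14.7% lower over all tested genes. STIP1 (Hop), which passes clients from Hsp70 to Hsp90, averaged 65.4 ± 11.3 CPM in dsInR2 and 31.2 ± 4.03 CPM in dsMock (log2 fold change 1.07, SE 0.15, adjusted p = 0.000121), while STUB1 (CHIP), the ubiquitin ligase that marks chaperone clients for breakdown, was lower (log2 fold change -0.79, SE 0.15, adjusted p = 0.000982). Nacalpha and Pfdn6, which receive new chains at the ribosome or hand them to the T-complex ring, rose by 0.91 and 0.69. Of the 8 further ER chaperones, none was higher and 3 were lower, beside 14.7% lower over all tested genes: Hsp90b1 (endoplasmin) at -1.07, crt (calreticulin) at -0.75 and hyou1 at -0.69 on the log2 scale. The disulfide isomerase Pdi had -0.72 and did not pass (adjusted p = 0.0673). Against dsInR3, where 11.3% of all tested genes were lower, 6 of these 8 were lower in dsInR2.

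**Figure D4:**
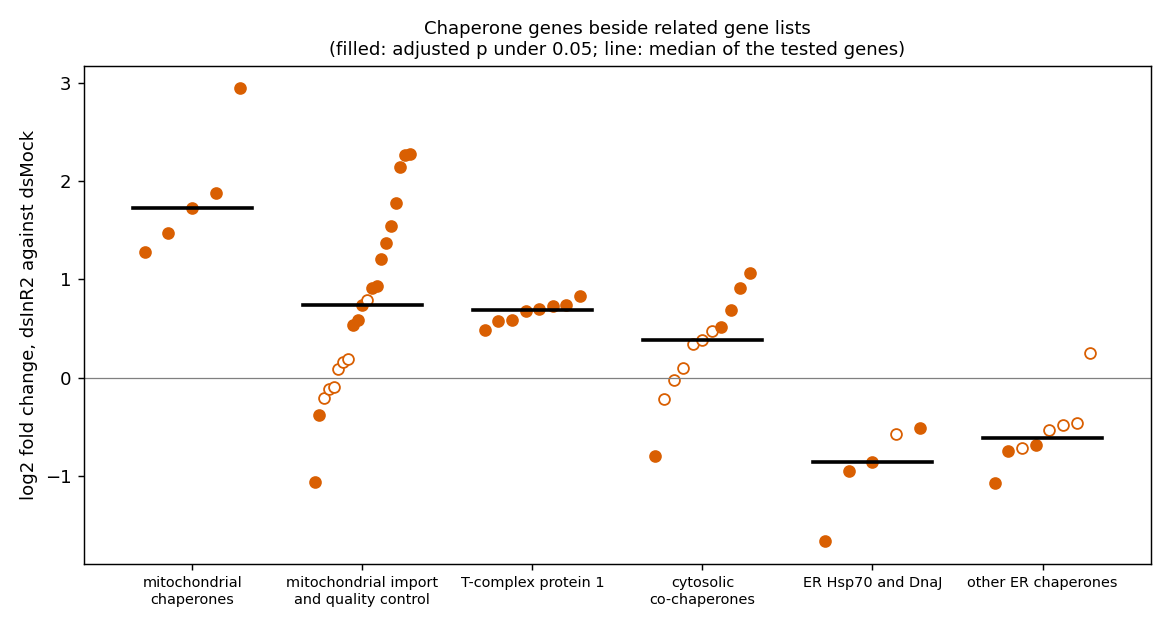
Log2 fold change of dsInR2 against dsMock (vertical axis) for each tested gene of 3 groups of the chaperone set and of 3 related gene lists; filled points have an adjusted p under 0.05 and lines are medians. The medians are 1.73 for mitochondrial chaperones, 0.74 for mitochondrial import and quality control, 0.69 for T-complex protein 1, 0.39 for cytosolic co-chaperones, -0.86 for the ER Hsp70 and DnaJ group and -0.61 for other ER chaperones.

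Markers of the fat body were present: apolipophorin, transferrin, hexamerin and Cr-PI allergen genes all had reads, and none of the 12 listed genes was at 0 in all libraries. The pattern for transferrin also caught 3 pyruvate dehydrogenase regulators. The counts and the sum below include these regulators. Of the 12, 7 were higher and 3 lower in dsInR2 against dsMock, beside 17.6% higher and 14.7% lower over all tested genes. The summed level of the 12 was 239188 to 367937 CPM in dsInR2 libraries and 50528 to 63576 CPM in dsMock libraries. Muscle markers summed to 139 to 310 CPM in dsInR2 and 113 to 209 CPM in dsMock, with 1 of 16 tested higher (a titin model) and 1 of 18 at 0 in all libraries. Hemocyte markers summed to 207 to 470.3 CPM in dsInR2 and 277 to 313 CPM in dsMock, with 1 of 10 tested higher, 1 lower and 2 of 15 at 0. The ranges of muscle and hemocyte markers overlapped between the groups, and their counts stand beside the same 17.6% and 14.7%. The fat body list differed, and the part of any of these lists in the chaperone results was not tested. Set against the 32.3% called over all tested genes, ovary and germline markers had 1 higher and 2 lower of 4 tested, gut and Malpighian tubule 1 and 1 of 20, nervous tissue 1 and 1 of 10, and epidermis and trachea 1 higher of 3.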

How the data were processed

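RNA of fat body was enriched for polyadenylated transcripts and made into libraries with a stranded TruSeq kit, per the labels' protocols. The submitters' processing notes name FastQC, Trimmomatic, HISAT2 and StringTie, without versions, and their settings are not given in the sources used here. The deposited table gives raw read counts per gene, with no normalization, for 28676 genes of build Bger_1.1. Its 32 columns of length-scaled values were not used, so levels of different genes are not ranked. Control columns are named dspolyh and were taken as dsMock, the one label group with no column of its own name. A column shows its group and a library number of its own, not the sample's title.

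Counts were tested with edgeR 4.0.16 (R 4.3.3): filterByExpr by group, TMM factors, 1 coefficient per group over all 16 libraries, and a quasi-likelihood F test with Benjamini-Hochberg adjustment over 10536 genes. DESeq2 1.42.0 and limma 3.58.1 (voom) were alternatives, with other scalings, no filter, fits of the 2 groups alone and each library left out in turn. The test was also run on simulated counts with the same mean profile in every group apart from planted changes. These lack the difference in C0J52_15443 between groups, so that run cannot bear on the scaling. Figures used matplotlib 3.10.9 and tables pandas 2.3.3. Library totals of 15345964 to 23688522 reads set the depth.

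The members, their roles and all gene lists were chosen with earlier results of these data known. TRAP1_1 and the 10 kDa protein were placed with the mitochondrial members after their product names were seen. The ER group was not among the planned roles, and its members were set apart by gene symbol. Values per library were printed for Hsp60, Trap1_0 and, in each role, the member with the highest mean CPM and the 3 with the smallest p of dsInR2 against dsMock; from each related list at most 4 genes with the smallest p were named. Dnajc8, DNAJC9, Dnajb12, the 10 kDa protein and untested members were named after their values were seen, as was CCT2 in dsInR3. Genes most like Hsp60 are not given, because Hsp60 separates dsInR2 from the other groups and no pooled correlation is given. No sequence is printed, and gene models were not examined beyond their coordinates.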

Additional observations from a re-analysis of the deposited data

Results flagged for a closer look

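In 4 of 80 combinations of a named chaperone gene and a group, 1 library stood apart from the other 3 by more than Dixon's 95% critical value of 0.829, and chance gives about 1 in 20. HSP7D_1 had 1630.4 CPM in library 3 of dsInR3, above the other 3. The homolog shv had 171 CPM in the same library, below the other 3. HSPA14 had 4.91 CPM in library 6 of dsInR3, below the others. DNAJA2 had 96.4 CPM in library 1 of dsMock, above the others. Library 3 of dsInR3 is also the one in which C0J52_15443 took 35.1% of the reads.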

How the results depend on the processing

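Of the 23 members called in dsInR2 against dsMock, 23 kept their call with DESeq2 and with DESeq2's size factors in edgeR, 22 with limma-voom, 21 without a filter and 21 with the 2 groups alone. Library totals alone gave 25 higher and 1 lower (dsInR2 against dsMock), 26 and 1 (against dsInR1) and 17 and 3 (against dsInR3), where the median of all tested genes was 0.61, 0.73 and 0.48 on the log2 scale. Among called members, that scaling turned the sign of DnaJ-1 (0.025) and dnajc10 (0.057) against dsMock and of DnaJ-1 (0.095), DNAJA2 (0.22) and dnajc10 (0.083) against dsInR1. It also turned the sign of HSP7D_1 (0.17) and shv (0.027) against dsMock, which were not called. Signs of the other members not called are not listed, and the cause was not tested. In dsInR3 against dsMock, DESeq2 gave 9 higher and 1 lower and limma-voom 1 higher; the cause was not tested. Leaving out 1 library gave 15 to 16 higher and 4 to 8 lower in dsInR2 against dsMock, 13 to 16 and 6 to 8 against dsInR1, 7 to 11 and 4 to 6 against dsInR3, and 0 to 4 higher and 0 lower in dsInR3 against dsMock. It gave 0 calls in dsInR1 against dsMock and in dsInR3 against dsInR1. No paired analysis was possible because the columns carry library numbers that could not be matched to the replicate numbers of the titles. Low read numbers limit the 10 kDa protein, Hsc70-2 and the 10 untested members, and spread between libraries also limits Hsc70-2.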
